A study of Oryza sativa with 3 samples.

Results

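The genes described are WRKY transcription factors of rice (Oryza sativa) outside group IIa of the family, taken as a list of 45 locus IDs and read from the array probes named for those loci. Of the 45 loci, 42 were on the array with 70 probes, 3 were not (Os05g0137500, Os05g0567200 and Os05g0478700), and 36 passed the filter on dim probes, among 22113 tested loci in all. Each locus stands by its brightest tested probe. Root RNA of cultivar TN-67 came from 6-day-old seedlings, germinated in water and grown in darkness, that were exposed to 1 mM vanadate or to water. Each sample mixed RNA of 1 h and 3 h of exposure, so a value is an average over both times. Each of 3 biological replicates was 1 array, with vanadate-treated RNA in the red dye and water-treated RNA in the green dye. No array had exchanged dyes, so a dye effect and a treatment effect cannot be told apart. What separates the replicates is not given in the sources used here. The p-values and SEs rest on the spread between these 3 arrays, moderated by the spread over all tested probes.

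WRKY proteins bind DNA through a domain that carries the WRKY signature and a zinc finger, and they recognise W-box elements in the promoters of defence and stress genes. The family is divided into groups I, II and III by the number of domains and the type of zinc finger, and group I proteins carry a pair of domains. In plant immunity many WRKY genes are induced within hours of a pathogen, an elicitor or an abiotic stress. Some of their proteins are phosphorylated by MAP kinases, and some repress rather than activate their targets. Names are given for the 7 loci that the list of members names. The other loci are given by ID, since the annotation table used here matched 0 of the 45 IDs.

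Transcripts of the tested WRKY loci were mostly higher under vanadate. The list was chosen with earlier results of these data known, so its counts do not stand for the whole family. Of the 36 tested loci, 31 rose, 3 fell and 2 were not called (limma on the log2 ratio of vanadate over water, Benjamini-Hochberg or BH-adjusted p under 0.05). Over all tested loci, 29.1% were called higher and 20.7% lower. Rises of at least 2-fold were called for 20 of the 36 loci, against 8.47% of all loci, of at least 4-fold for 10, against 2.9%, and of at least 8-fold for 4, against 1.05%. Falls of at least 2-fold were called for 0 of the 36, against 1.52% of all loci. The lower quartile, median and upper quartile of the log2 ratio were 0.48, 1.25 and 2.02 over the 36 loci, beside a median of 0.02 over all tested loci. The median of the 36 was 1.25, 1.12 and 1.25 on replicates 1, 2 and 3. In whole roots, a change in the share of a cell type and a change of RNA per cell cannot be told apart. Of 3 loci taken as root markers, 2 were called lower under vanadate, Os02g0745100 at a log2 ratio of -2.06 ± 0.20 (SE; BH-adjusted p = 0.000400) and Os03g0107300 at -1.02 ± 0.20 (SE; BH-adjusted p = 0.00691). The other, Os02g0662000, was called higher, at 0.68 ± 0.11 (SE; BH-adjusted p = 0.00381). These root loci were chosen to show detection above background, not to measure the share of a cell type. The part of their shifts in the WRKY values was not tested.

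The filter bears on these counts. It asked for a signal well above background on at least 2 arrays in 1 of the channels, and 9 of the 36 loci passed through the vanadate channel alone and 0 through the water channel alone. The channels were unlike over the whole array too. Vanadate cleared background on more arrays than water in 10 of the 36 loci, beside 10.2% of all tested loci. The reverse held in 0, beside 2.37%. For the 9 loci that passed through the vanadate channel alone the filter favoured a rise, and their rises are not evidence of direction for the listed loci. Among the 26 loci that cleared background with vanadate and with water on each of the 3 arrays, 21 rose, 3 fell and 2 were not called, beside 27% higher and 22.8% lower over the 19161 loci of that kind. Rises of at least 2-fold were called for 12 of these 26, against 7.07% of such loci. With the signals processed by the scanner software, 28 of the 36 loci were called higher and 2 lower, beside 22.7% and 31.1% of all loci, and the median of all loci was -0.11.

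**Figure D1:**
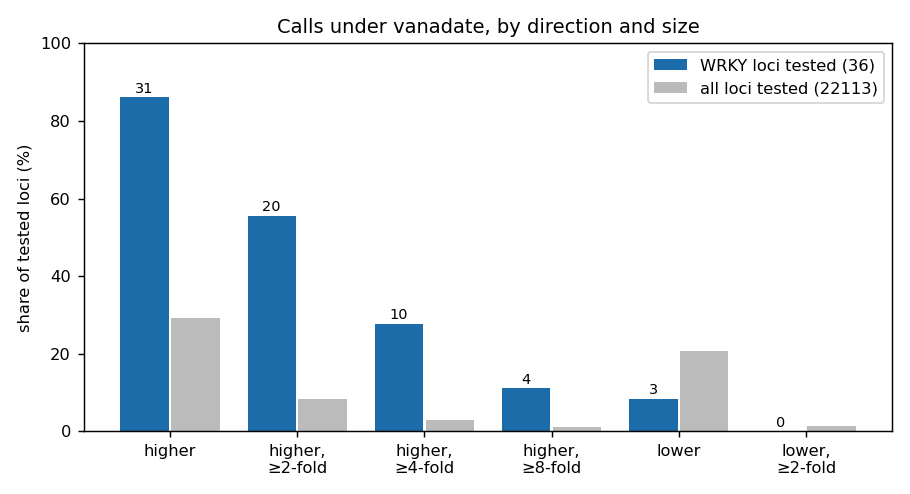
Share of tested loci (%) called higher or lower under vanadate, with a minimum fold where given, for the 36 tested WRKY loci (blue, the number of loci above each bar) and for all 22113 tested loci (grey). The WRKY bars for rises stand above the grey bars at each size, and the WRKY bars for falls stand below them.

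The largest rise was that of WRKY72 (Os11g0490900), a factor tied to jasmonate synthesis and to susceptibility to bacterial blight in rice. Its normalized signal, in arbitrary units, was 3079, 2113 and 2727 in vanadate-treated roots on replicates 1, 2 and 3, against 209.8, 139 and 172 in water-treated roots. Every vanadate signal lay far above every water signal. The log2 ratio was 3.93 ± 0.08 (SE; BH-adjusted p = 2.30e-06), a 15.2-fold rise, with values of 3.88, 3.92 and 3.99 on the 3 arrays. With the processed signals it was 4.60.

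WRKY53 (Os05g0343400) is a group I factor that is induced by elicitors, is phosphorylated by MAP kinases and raises resistance to blast fungus when overexpressed. Vanadate-treated roots gave 28054, 20232 and 40687, against 4753, 2825 and 5055 in water-treated roots. The channels did not overlap, and the log2 ratio of 2.80 ± 0.10 (SE; BH-adjusted p = 9.28e-06) is a 6.98-fold rise. Its other probe, on the coding sequence, gave 2.70 ± 0.14 (SE).

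WRKY45 (Os05g0322900) is a group III factor at the centre of the salicylic acid branch of rice immunity. Its signals were 6342, 7669 and 6329 under vanadate, against 1055, 1141 and 1385 in water. The signals of the channels were separate, with a 5.69-fold rise at a log2 ratio of 2.51 ± 0.12 (SE; BH-adjusted p = 2.15e-05). All 4 of its probes rose, at log2 ratios of 2.51, 2.43, 2.19 and 1.41. The probe at 1.41 had a 95% interval of 1.23 to 1.60, which lay below the intervals of the other probes.

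WRKY24 (Os01g0826400), a group I factor that represses gibberellin and abscisic acid signalling in aleurone cells, had signals of 8703, 5534 and 13646 under vanadate and of 2176, 2576 and 3925 in water. The lowest vanadate signal exceeded the highest water signal. Its log2 ratio was 1.63 ± 0.17 (SE; BH-adjusted p = 0.000542), a 3.1-fold rise, with the lowest value, 1.1, on replicate 2. Both other probes, which reach into the 3′ UTR, also rose, at 2.33 ± 0.43 and 2.89 ± 0.20 (SE), and the mean over its probes was 2.28. On the probe at 2.33 replicate 1 was low, with 0.99 against 2.44 and 3.57 on replicates 2 and 3.

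WRKY30 (Os08g0499300), a substrate of MAP kinases that is linked to drought tolerance and blast resistance, rose too. Under vanadate its signals were 317, 324 and 458, and in water 149, 140.2 and 188. They did not overlap, and the log2 ratio was 1.19 ± 0.08 (SE; BH-adjusted p = 9.34e-05), a 2.29-fold rise. WRKY70 (Os05g0474800), a group I factor that favours defence over growth, had vanadate signals of 219.8, 147 and 185 and water signals of 93.8, 82.9 and 83.3. Water-treated roots did not give a signal well above background on any array, so only a bound holds: it was at least 1.74-fold higher under vanadate (BH-adjusted p = 0.000376). WRKY70 passed the filter through the vanadate channel alone, so this p-value is not evidence of direction. Its log2 ratio was 1.07, and 3.40 with the processed signals.

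WRKY13 (Os01g0750100), which promotes salicylate-dependent and represses jasmonate-dependent defence, was not called on its brightest probe, and its probes disagreed. That probe, on the 5′ UTR and coding sequence, gave 20732, 16221 and 24144 under vanadate and 13444, 19269 and 26789.9 in water. Replicate 1 was higher and replicates 2 and 3 were lower under vanadate, at log2 ratios of 0.62, -0.25 and -0.15. Their mean was 0.08 with a 95% interval of -0.34 to 0.49 (BH-adjusted p = 0.736), and -0.20 without replicate 1. Both probes on the coding sequence and 3′ UTR rose, with log2 ratios of 1.21 ± 0.15 (SE; BH-adjusted p = 0.00106) and 0.68 ± 0.12 (SE; BH-adjusted p = 0.00408). The mean over the 3 probes was called higher, at 0.66 (BH-adjusted p = 0.00137).

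**Figure D2:**
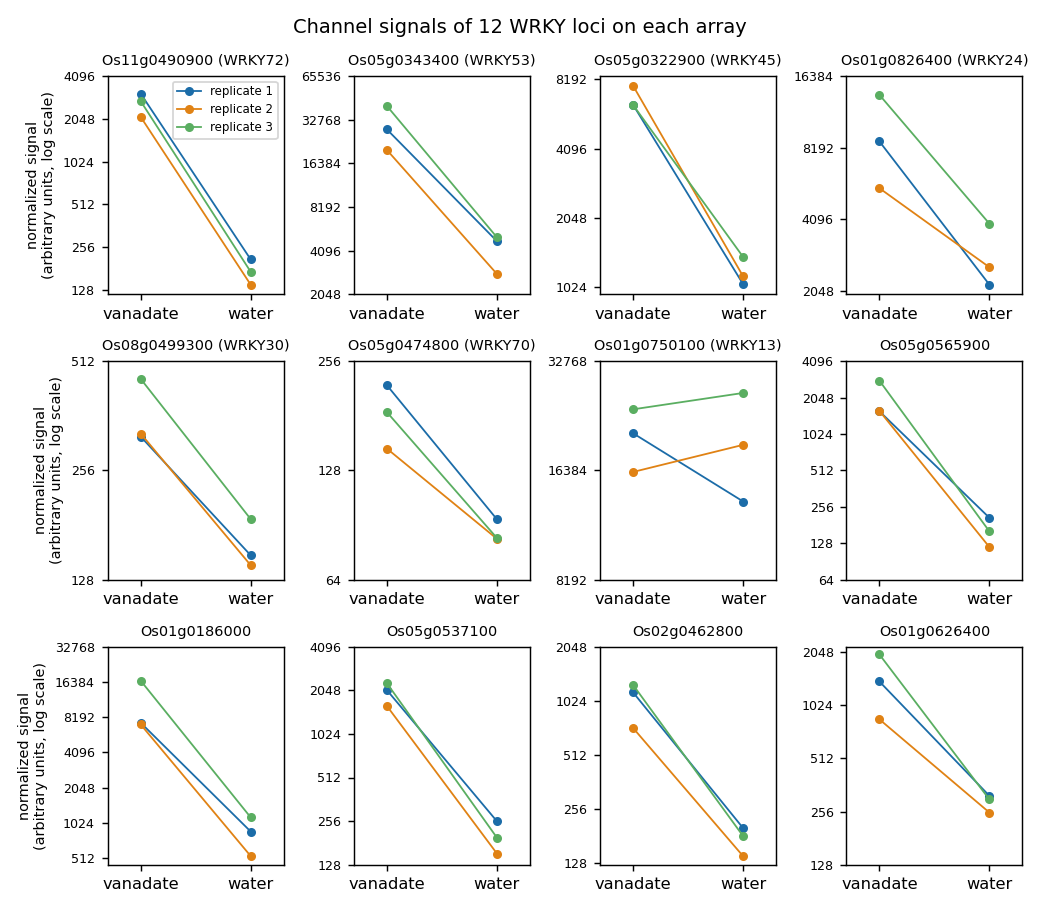
Normalized signal (arbitrary units, log scale) of 12 WRKY loci in vanadate-treated (left) and water-treated (right) roots, with 1 line per array; panels are the 7 named loci and the 5 other loci of largest rise. Lines slope down towards water in each panel but that of WRKY13, where replicates 2 and 3 slope up.

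Of the 10 loci with the largest called rises, 7 are given by ID. Os05g0565900 had signals of 1579.7, 1592 and 2831 under vanadate and of 207, 119 and 159.9 in water. Its log2 ratios of 2.93, 3.75 and 4.15 gave a mean of 3.61 ± 0.21 (SE; BH-adjusted p = 5.12e-05), a 12.2-fold rise, and 4.48 with the processed signals. Replicate 1 was the lowest of the arrays, and water-treated roots cleared background on 2 of them. Os01g0186000 gave 7342, 7101 and 16779 under vanadate and 867, 535 and 1144 in water, an 11.8-fold rise at 3.56 ± 0.16 (SE; BH-adjusted p = 1.58e-05). Its other probe was close to that value, at 3.64 ± 0.12 (SE). Os05g0537100 gave 2051, 1594 and 2288 under vanadate and 256, 153 and 197 in water. That is a 9.9-fold rise at 3.31 ± 0.12 (SE; BH-adjusted p = 7.95e-06), with separate channels.

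Os02g0462800 had vanadate signals of 1138, 721 and 1251 and water signals of 200.0, 139.6 and 180.5, a 5.88-fold rise at a log2 ratio of 2.56 ± 0.10 (SE; BH-adjusted p = 1.17e-05). It was 3.30 with the processed signals, and its other probe, dim in water on all arrays, gave 2.60. For Os01g0626400 the signals were 1396, 853 and 1986 under vanadate and 314, 253 and 299.8 in water. The log2 ratios of 2.15, 1.75 and 2.73 differed between arrays, and averaged 2.21 ± 0.18 (SE; BH-adjusted p = 0.000171), a 4.63-fold rise. Os01g0665500 gave 1767, 1931 and 2076 under vanadate and 480.4, 469 and 453 in water, a 4.11-fold rise at 2.04 ± 0.09 (SE; BH-adjusted p = 1.69e-05). Its 3 probes rose to unlike degrees, at 2.04, 1.60 and 0.71, the last on the 5′ UTR and coding sequence and dim in water, and their mean was 1.45. Os04g0287400 gave 2749, 2377 and 2649.6 under vanadate and 642, 621 and 663 in water, a 4.03-fold rise at 2.01 ± 0.08 (SE; BH-adjusted p = 1.11e-05). Its arrays were close, with an SD of 0.08, and its other probe gave 1.94. In each of the 10 loci of largest rise all vanadate signals exceeded all water signals. That held for 25 of the 36 tested WRKY loci, beside 23.8% of all tested loci, and the reverse order held for 0, beside 16.6%. The 25 include the 9 loci that passed the filter through the vanadate channel alone, a route that favours a brighter vanadate signal.

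**Figure D3:**
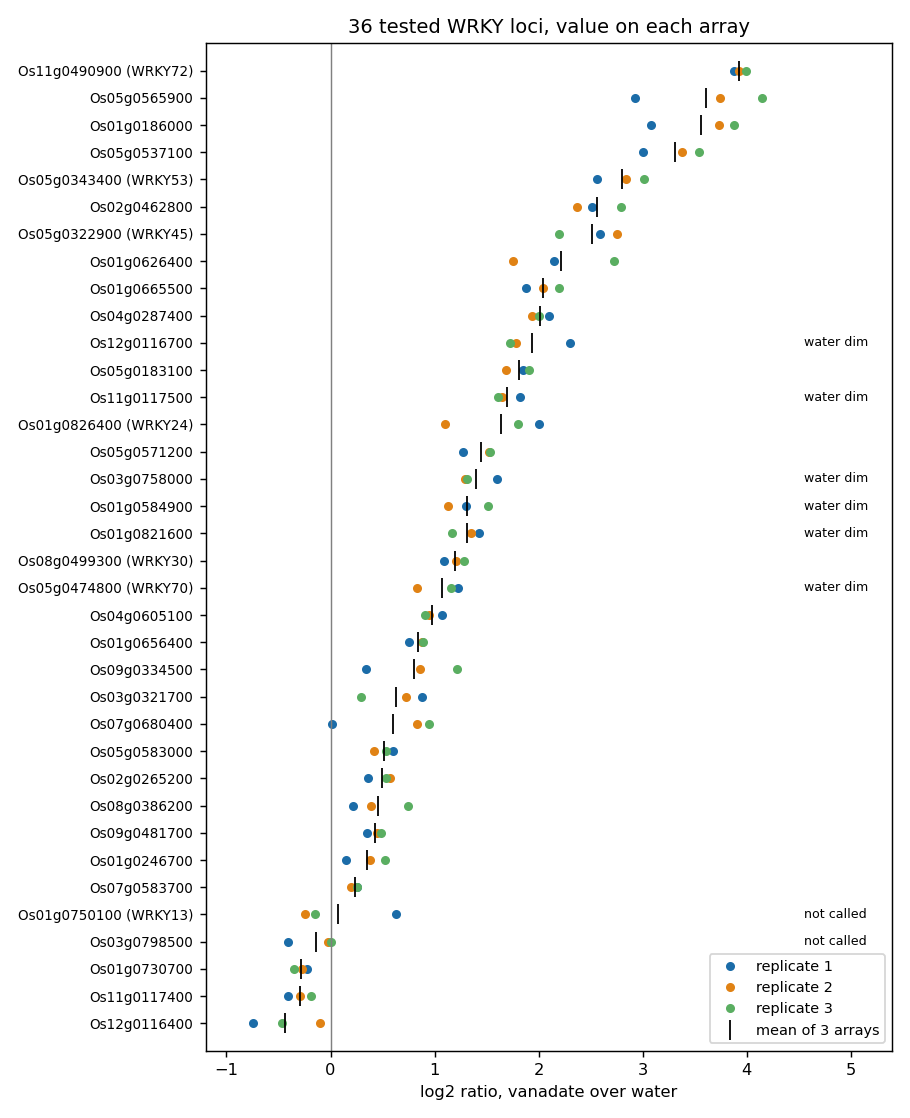
Log2 ratio of vanadate over water for the 36 tested WRKY loci, sorted by their mean; coloured points are the 3 arrays and the black tick is their mean. Loci marked water dim gave no water signal well above background on the 3 arrays, and those marked not called missed the threshold. Of the 36 loci, 31 lie right of 0 on all 3 arrays, beside 39.6% of all tested loci, and 3 lie left of 0 on all 3, beside 33.6%. The 31 include the 9 loci that passed the filter through the vanadate channel alone.

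In 6 of the loci that rose, vanadate-treated roots gave a signal well above background on each of the 3 arrays and water-treated roots on 0, which was so for 2.26% of all tested loci. Besides WRKY70 they were Os12g0116700, Os11g0117500, Os03g0758000, Os01g0821600 and Os01g0584900. Os12g0116700 was 3.83-fold higher under vanadate. The bounds of the others were at least 2.67-fold, 2.26-fold, 2.17-fold and 2.16-fold, in that order. The bound sets the vanadate signal against the higher of the probe's own water signal and the lowest signal that passed as above background. For Os12g0116700 it equals the fold of the log2 ratio, since its own water signal was the higher on every array. Their adjusted p lay between 2.44e-05 for Os11g0117500 and 0.000129 for Os01g0584900 (limma). These loci passed the filter through the vanadate channel alone, so these p-values are not evidence of direction. The bounds leave out the spread between arrays, and a dye bias would enter them. With the processed signals, from which background was subtracted, the log2 ratios of these 5 loci were 3.39, 4.36, 4.07, 3.53 and 3.55 in the same order, against 1.94, 1.69, 1.40, 1.31 and 1.31 here.

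Neighbouring WRKY loci of chromosomes 11 and 12 had log2 ratios of different sign, with limits on both sides. Os11g0117500 rose, with 364, 249 and 264 under vanadate and 103, 79.5 and 86.4 in water. Os12g0116700 rose as well, with 653, 414 and 369 under vanadate and 132, 121 and 111 in water. Both passed the filter through the vanadate channel alone, so these rises are not evidence of direction. Os11g0117400, next to the first by locus number, was slightly lower under vanadate, with 323, 454 and 464 against 428, 554 and 528 in water. Each array had it lower, at log2 ratios of -0.41, -0.29 and -0.19, and the mean of -0.29 ± 0.08 (SE) passed the threshold (BH-adjusted p = 0.0268). Os12g0116400 was lower too, with 121, 513 and 131 under vanadate and 203, 550.3 and 182 in water. Replicate 2 stood apart in both channels of that probe, and its mean log2 ratio was -0.44 ± 0.13 (SE; BH-adjusted p = 0.0303). Neither fall kept its call in every setting, as given below. Os11g0117600 did not clear background with either RNA on any array and was not tested. Near-identical copies could share a probe's signal, and this was not tested because no probe sequence was used here.

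The third locus that fell was Os01g0730700, with 228, 283 and 308 under vanadate and 267, 343 and 394 in water. The channels overlapped across arrays, but each array had it lower, at -0.23, -0.28 and -0.36, with a mean of -0.29 ± 0.08 (SE; BH-adjusted p = 0.0236). All 3 falls were under 1.4-fold, at 1.22-fold for this locus, 1.23-fold for Os11g0117400 and 1.35-fold for Os12g0116400. With any 1 replicate left out only 1 of them was called, Os01g0730700 without replicate 1, Os12g0116400 without replicate 2 and Os11g0117400 without replicate 3, and with the channels as separate samples 0 were, with adjusted p of 0.333 for Os01g0730700, 0.677 for Os12g0116400 and 0.311 for Os11g0117400.

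For 16 loci more than 1 probe was tested, giving 22 probes beside the brightest. Of these 22, 21 had the sign of the brightest probe, 19 had the same call and 0 had the opposite call. In 2 loci, picked out after their values were seen, the size of the rise differed greatly between probes. Os01g0246700 had log2 ratios of 0.14, 0.38 and 0.52 on its brightest probe, which lies on the coding sequence, and of 2.59, 2.35 and 2.70 on the probe that reaches into the 3′ UTR. The means were 0.35 (95% interval 0.11 to 0.58) and 2.55 (95% interval 2.32 to 2.78). Os08g0386200 had means of 0.45 (95% interval 0.17 to 0.73) on the coding sequence and of 2.21 (95% interval 1.79 to 2.63) on the probe that reaches into the 3′ UTR. Their mean over the probes was 1.45 and 1.33. Whether transcripts of other loci bind these probes was not tested.

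**Figure D4:**
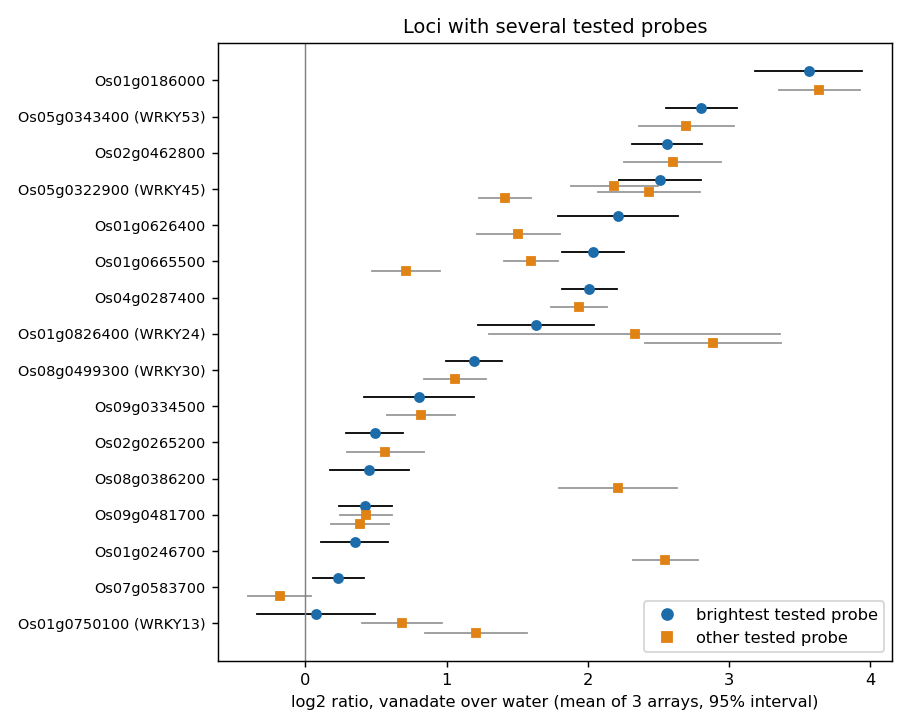
Mean log2 ratio of vanadate over water, with its 95% interval from limma over 3 arrays, for each tested probe of the 16 WRKY loci with several tested probes; blue circles are the brightest tested probe and orange squares the others. The probes of Os01g0246700, Os08g0386200 and WRKY13 lie apart, while those of Os01g0186000, WRKY53 and Os09g0481700 nearly coincide.

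The other 17 tested loci, which include 3 of those dim in water, had log2 ratios of -0.14 to 1.81, and 16 rose. At the upper end was Os05g0183100, 3.51-fold higher at 1.81 ± 0.08 (SE; BH-adjusted p = 1.86e-05), with 1126, 778 and 1049 under vanadate and 313, 242 and 280.4 in water. Os05g0571200 followed, at 1.44 ± 0.09 (SE), but water-treated roots cleared background on 1 array only, and the processed signals gave 3.43. Os04g0605100 rose 1.97-fold, with 9421, 10354 and 9569 under vanadate and 4474, 5366 and 5115 in water. Os01g0656400 rose 1.79-fold, Os09g0334500 1.75-fold and Os03g0321700 1.55-fold. Os07g0680400 and Os05g0583000 were called higher at log2 ratios of 0.60 and 0.52, with water signals well above background on 1 array each. Their sizes depend on the treatment of background, with 1.77 and 1.48 from the processed signals. Os07g0680400 was at 0.02 on replicate 1 and at 0.83 and 0.95 on the others, and its call was lost without replicate 2 or 3 and with the processed signals (BH-adjusted p = 0.0810, 0.0813 and 0.0804, in that order). Rises under 1.5-fold were called for Os02g0265200, Os08g0386200, Os09g0481700, Os01g0246700 and Os07g0583700, at 1.40, 1.37, 1.34, 1.27 and 1.18-fold. That of Os01g0246700 was not called on this probe without replicate 2 or 3 (BH-adjusted p = 0.105 and 0.0823). Median centring lost the calls of Os02g0265200, Os08g0386200, Os09g0481700 and Os03g0321700 (BH-adjusted p = 0.0531, 0.0662, 0.168 and 0.0533). Calls lost with channels as separate samples include Os08g0386200, Os09g0481700, Os03g0321700 and Os01g0656400 (BH-adjusted p = 0.281, 0.305, 0.128 and 0.109), while Os02g0265200 kept its call there (0.0394). The rise of Os07g0583700 was called on 1 of its probes (BH-adjusted p = 0.0424) and not on the other tested one, at -0.18 ± 0.09 (SE). It kept its call under 4 of 12 alternatives, and lost it without replicate 1, 2 or 3 (BH-adjusted p = 0.110, 0.178 and 0.103), with median centring (0.666) and with the processed signals (0.432). The brightest probe of that locus lacked a value on 1 array, replicate 3, and was not tested. On replicates 1 and 2 that probe was lower under vanadate, at log2 ratios of -0.24 and -0.47. Os03g0798500 was not called, at -0.14 with a 95% interval of -0.40 to 0.11 (BH-adjusted p = 0.299).

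Besides Os11g0117600, the loci on the array that failed the filter were Os04g0471700, Os03g0657400, Os03g0335200, Os07g0111400 and Os11g0685700. Of these, Os03g0335200 was above background in the vanadate channel on 1 array, and the others did not clear background with either RNA. Their signals were too dim for the filter.

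The list used for group IIa, the branch of the family that holds WRKY62, WRKY71 and WRKY76, had 4 tested loci and all 4 rose, at log2 ratios of 2.98 to 4.32 with a median of 3.55. WRKY72, at 3.93, and Os05g0565900, Os01g0186000 and Os05g0537100, at 3.31 to 3.61, lay inside that range. No test of the difference between the groups was made. The loci of the following lists were picked by ID from background knowledge, and no annotation was at hand to check the IDs. Of the MAP kinases and their kinases, which act upstream of WRKY proteins, the array held 7 loci, of which 6 passed the filter. Here 3 rose, 0 fell and 3 were not called, with a range of -0.22 to 2.57 and a median of 0.50. The list of NPR1-type coactivators, which act beside WRKY45 in salicylic acid signalling, had 3 of 3 loci higher, at 1.35 to 2.23. Of 4 tested loci listed as defence outputs, mostly pathogenesis-related proteins, 2 rose, 0 fell and 2 were not called, with a median of 1.02 and a range of -0.09 to 1.25. These counts stand beside the 29.1% and 20.7% of all loci called higher and lower.

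Across the 36 loci, which share each array, Pearson's r between the log2 ratios of replicates 1 and 2 was 0.94, of 1 and 3 was 0.94 and of 2 and 3 was 0.97. Over all tested probes the values were 0.93, 0.89 and 0.92, in that order. Replicate 3 was on a slide of its own and was scanned on another day than replicates 1 and 2. With slide as a block 31 of the loci were called higher and 3 lower, beside 31.8% and 23.7% of all loci. Within the slide of replicates 1 and 2 these were 28 and 1, beside 26.7% and 17% of all loci. The other slide held 1 array and allows no test. Gene spots well above background made up 73.7% to 76.1% in the vanadate channel and 69.0% to 75.3% in the water channel. All 3 root marker loci cleared background with both RNAs on each array. Of 3 loci taken as markers of green shoots, 0 were above background on all arrays in the vanadate channel and 1 in the water channel. All 3 of these shoot loci passed the filter, and 0 were called higher or lower. Of 2 loci of seed endosperm 0 passed the filter.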

How the data were processed

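Root RNA was measured on 3 two-channel arrays. Per the file headers, the software Agilent Feature Extraction (version 10.7.1.1) gave a median spot intensity and a local background intensity, both uncorrected, and a processed intensity after background subtraction and dye normalization. Its log10 ratio of red to green, per the file headers, served only to check the direction. The authors deposited log2 ratios in a value table. On each array at least 99.9% of them came within 0.001 of the log2 ratio of the processed intensities, so they run as vanadate over water. The table is not centred, with medians of -0.19, -0.21 and -0.05.

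Background was corrected by normexp (offset 50, included in the printed signals) on median signals, and log ratios were normalized within arrays by loess (limma 3.58.1, R 4.3.3). Control spots had weight 0, and flagged spots were left out (129 to 958 of 43144 gene spots). Printed signals were brought to a common scale between arrays (Aquantile), and signals of different probes are not comparable. A probe was tested with values on all 3 arrays and a signal well above background on at least 2 arrays in 1 channel, which kept 31108 of 42418 probes. The mean log2 ratio was tested against 0 with lmFit and eBayes and Benjamini-Hochberg adjustment over all tested probes, at 0.05. A log2 ratio with this offset understates the change of a dim probe. The fit was tested on simulated data. The number of arrays limits the precision.

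Members and lists were chosen with earlier results of these data known, so no test over a list was made. Loci described one by one were the 7 named ones, the 10 largest called rises, all called falls (up to 10) and the neighbouring loci of chromosomes 11 and 12. The rule also asked for loci with probes called in opposite directions, of which there were 0. Further loci are named for completeness after their values were seen. Each array pairs its channels. Alternatives changed the signals, normalization, filter, slide, spread, choice of probe, pairing and replicates. No sequences are shown, since none was used here.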

Additional observations from a re-analysis of the deposited data

How the results depend on the processing

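Each of the 36 loci was recomputed under up to 12 alternatives, 422 values in all, and 381 kept their direction and their side of the threshold. Alternatives that changed only the filter, slide block, intensity trend or pairing left each log2 ratio as it was. Direction could not change there, only the p-value. The authors' value table nearly repeats the processed signals, so these alternatives are not independent and the tally overstates the stability. Loci that did so under every alternative run numbered 23. The count called higher lay between 21 of the 26 loci that passed the strict filter and 33 of the 42 left with no filter, beside 27% and 22.3% of all loci under those settings. The authors' value table and the processed signals both gave a median log2 ratio of 1.86, and it was 0.91 both with no filter and with the strict filter, which tests fewer loci. It was 1.25 as reported, where 31 loci were called higher. The loss of pairing, with channels as separate samples (no replicate block), gave 23 higher and 0 lower, beside 15.3% and 6.53% of all loci. Leaving out a replicate gave 28 to 30 higher and 1 lower each time. Median centring in place of loess gave 26 higher and 2 lower, beside 19.1% and 14.7% of all loci. WRKY13 (Os01g0750100) turned to -0.20 without replicate 1, was 0.24 without replicate 2 and was called higher, at 0.66, as the mean over its probes; the cause was not tested. Under the strict filter 2 group IIa loci and 1 defence output were called higher, and with channels as separate samples 1 defence output was, against 4 and 2 as reported. Defence outputs called higher numbered 3 with slide as a block and 3 with no filter. Dim water signals limit the size of 9 rises.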

Other observations

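With no filter on dim probes, 2 of the 6 otherwise untested WRKY loci were called higher, beside 22.3% of all loci in that setting. They were Os03g0335200 at a log2 ratio of 0.44 ± 0.08 (SE; BH-adjusted p = 0.00512) and Os07g0111400 at 0.30 ± 0.08 (SE; BH-adjusted p = 0.0245). Neither water channel was above background on any array. Os11g0117600 was at -0.25, Os11g0685700 at -0.13, Os03g0657400 at 0.04 and Os04g0471700 at 0.11, and none of these 4 was called in limma.

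Among the 31 WRKY loci that rose, the highest log2 ratio came from replicate 3 in 18, from replicate 1 in 11 and from replicate 2 in 2, while the lowest came from replicate 1 in 15, from replicate 2 in 10 and from replicate 3 in 6.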
